A study of Mustela putorius furo and Mus musculus with 4 samples.

Results

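*CA10* *PTH1R* neurons are cells of the embryonic ferret cortex that carry transcripts of a set of 6 genes. A cell was taken when it had at least 750 detected genes and at least 1 unique molecular identifier (UMI, which counts each captured transcript once) in at least 3 of *CA10*, *CLSTN2*, *SLC4A4*, *PTH1R*, *GRAMD1B* and *BDNF*. It also had to have 0 UMIs of *EOMES*, *LHX6* and *ADARB2*, fewer than 3 detected genes of *S100A10*, *EPHA6*, *SLN*, *CALB2*, *COL12A1* and *RERG*, and fewer than 3 of *RORB*, *PENK*, *INHBA*, *IGFBP3*, *FBN2* and *LYPD6*. The rule took 1048 of 23241 ferret cells (4.51%, exact binomial 95% interval 4.25 to 4.78). The rule uses the counts described here, so the levels of the genes it names describe the choice and are no finding.

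The scRNA-Seq libraries come from the cortex of both hemispheres of 1 ferret embryo at E39, for which the labels and methods name no genetic change or treatment, and the labels list 2 ferret samples. The series also holds mouse cortex, and 41602 cells in all. The ferret barcodes end in 1 of 2 suffixes, which nothing used here ties to the 2 samples, so they are given as set 1 and set 2. With 1 embryo there is no biological replicate. No test between groups of cells was made, and every interval covers counting error only.

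Excitatory pyramidal neurons (PyNs) of the cortex are born from radial glial (RG) cells and intermediate progenitors in the germinal zones, and take on layer and projection identities as they migrate and settle. Neurons of the upper layers mostly project within the cortex, across the corpus callosum or within a hemisphere, and express *CUX2*. Neurons of the deep layers send axons to the thalamus, brainstem and spinal cord, and express *FEZF2*, *BCL11B* or *TLE4*. Of the genes that define the rule, *CA10* encodes a secreted carbonic anhydrase-related protein that binds neurexins, and *CLSTN2* a calsyntenin of the synaptic membrane. *SLC4A4* encodes a sodium bicarbonate cotransporter, *PTH1R* the receptor of parathyroid hormone and its related peptide, *GRAMD1B* a carrier of sterol between membranes, and *BDNF* a neurotrophin.

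Set 2 held most of these neurons. The rule took 115 of 10187 cells in set 1 (1.13%, 0.933 to 1.35) and 933 of 13054 in set 2 (7.15%, 6.71 to 7.60), and the intervals do not overlap. As a share of excitatory neurons the values were 2.17% (1.80 to 2.60) and 13.3% (12.6 to 14.2). A rule that asks for detected genes depends on depth, and depth differed, with a median of 3453 UMIs in the neurons of set 1 and 5389 in those of set 2. Among cells of 5000 to 6500 UMIs without *EOMES*, *LHX6* and *ADARB2*, the rule took 9 of 473 cells in set 1 (1.90%, 0.874 to 3.58) and 331 of 1574 in set 2 (21.0%, 19.0 to 23.1). Cells of at least 3000 UMIs were also thinned to 3000 each, and shallower cells were left out. The rule then took 1.20% (0.883 to 1.60) of 3819 cells in set 1 and 5.32% (4.84 to 5.83) of 8180 in set 2. The gap between the sets varied with depth. At 2000 to 3000 UMIs the shares were 0.911% (0.611 to 1.31) and 1.49% (1.05 to 2.04), whose intervals overlap. In every other bin the intervals did not overlap, with 0.319% (0.138 to 0.627) and 2.17% (1.43 to 3.14) at 1000 to 2000 UMIs. Set and sample cannot be told apart here.

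**Figure D1:**
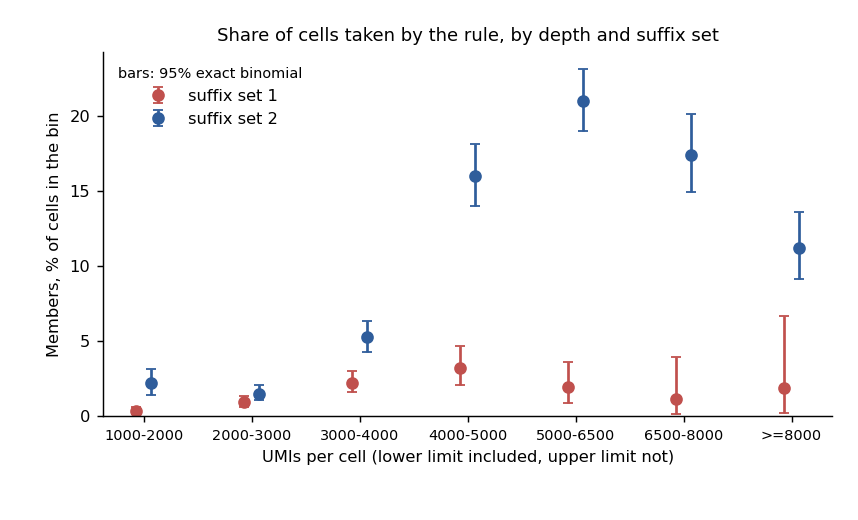
Share of ferret cells (0 UMIs of *EOMES*, *LHX6* and *ADARB2*) that the rule took as members, the *CA10* *PTH1R* neurons (vertical axis, %), in bins of UMIs per cell (horizontal axis), for barcode suffix sets 1 and 2, with exact binomial 95% intervals. At 5000 to 6500 UMIs the share was 1.90% in set 1 and 21.0% in set 2.

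The whole ferret table holds 23482 cells and 22008 genes, and its cells of at least 750 genes have a median of 3064 UMIs. The 1048 neurons hold 5644311 UMIs, 5224307 of them in set 2, with medians of 5185 UMIs and 2345 genes per cell and 1.32% mitochondrial UMIs. Of 1423 cells with at least 3 of the 6 genes, 187 were left out for *EOMES*, *LHX6* or *ADARB2*, a further 164 for the *S100A10* genes and 24 for the *RORB* genes. Most of those kept sat at the limit: 709 (67.7%) had 3 of the 6 genes, 256 (24.4%) had 4, 67 (6.39%) had 5 and 16 (1.53%) had all 6. Just outside stood 1549 excitatory neurons with 2 of the 6. Levels are given as counts per 1000000 UMIs of the same cells (CPM). From just outside to just inside the limit, *CA10* stood at 68.6 and 155 CPM, *PTH1R* at 100 and 170 CPM, and *BDNF* at 16.9 and 40.0 CPM. *SLC4A4* stood at 38.1 and 76.5 CPM. The step was smaller for *CLSTN2*, at 193 and 240 CPM, and for *GRAMD1B*, at 254 and 292 CPM.

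The label of excitatory neurons held against markers that the rule did not use. *NEUROD2* or *NEUROD6*, transcription factors of cortical PyNs, had a UMI in 1035 of the neurons (98.8%), and 1030 (98.3%) had none of *GAD1*, *GAD2* and *SLC32A1*, which make and load GABA. Of 8 excitatory genes, 986 cells (94.1%) had at least 3. The list of 12 inhibitory markers summed to 63.1 CPM (88.1 in set 1, 61.1 in set 2), against 94.9 CPM in the other excitatory neurons described below. Inhibitory neurons had 18035 CPM, but they were chosen by this list, so that value describes the choice. The rule had left out cells with the interneuron genes *LHX6* or *ADARB2*, so low inhibitory markers are partly built in. The endothelial list summed to 7.80 CPM with 2 of 7 genes at 0, the oligodendrocyte list to 6.73 CPM with 1 of 6 at 0, the meningeal list to 0.532 CPM with 2 of 4 at 0, and the microglial list to 20.7 CPM (61.9 in set 1, 17.4 in set 2). The RG list summed to 3886 CPM, of which *FABP7*, a fatty acid binding protein of RG cells and young neurons, made up 3794 CPM. Markers of cells other than excitatory neurons were therefore low, apart from *FABP7*. No doublet caller was run, and 77 of the neurons (7.35%) carried several markers of inhibitory neurons, RG cells or microglia. They were kept, and no named gene changed direction without them. Of 38 barcodes that occur in both sets, 2 belonged to these neurons.

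The 6 genes of the rule are given first as a description of the choice, beside cell types outside the excitatory lineage. *CA10* had 200 CPM (188 to 212) in the neurons and a UMI in 55.7% of them, against 2.28% of inhibitory neurons and 1.07% of RG cells, whose median depths were 2728 and 4128 UMIs. Cells that met the rule were left out of the RG cells, so the low RG shares are partly built in. *PTH1R* had 188 CPM and a UMI in 67.2% of the neurons, against 1.60% and 2.81%. *CLSTN2* had a UMI in 72.2% of the neurons, against 2.11% and 5.67%, and *SLC4A4* in 39.4%, against 0.927% and 4.32%. *GRAMD1B* was found in 83.7% of the neurons, and was also the most frequent of the 6 elsewhere, with a UMI in 11.5% of inhibitory neurons and 9.26% of RG cells. *BDNF* was found in 23.6% of the neurons, in 0.281% of RG cells and in 0 of 1186 inhibitory neurons, which allows a share of cells with a UMI of up to 0.253% and does not bound expression.

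How far the 6 genes go together was described for each one among cells chosen by the other 5. *CA10* had a UMI in 36.6% (33.1 to 40.2) of 732 cells with at least 3 of the other 5, and in 3.90% (3.38 to 4.47) of 5057 excitatory neurons with none, at 139 and 15.7 CPM. In set 1 the CPM values were 87.7 and 13.4, and in set 2 they were 142 and 18.1. *SLC4A4* stood at 67.0 against 8.80 CPM, *BDNF* at 33.4 against 5.08, *PTH1R* at 129 against 42.4, *CLSTN2* at 173 against 59.8 and *GRAMD1B* at 239 against 101. Pooled over the sets, each gene was higher in the cells with the others, which describes the genes of the rule. In set 2 the intervals of the cells with and without the others did not overlap for any of the 6, and in set 1 they did not overlap for *CA10* and *SLC4A4*. In set 1 they overlapped for *CLSTN2*, *GRAMD1B*, *PTH1R* (76.5 CPM, 43.7 to 124, against 44.6, 40.4 to 49.1) and *BDNF* (14.4 CPM, 4.68 to 33.6, against 6.48, 4.85 to 8.48). Cells with the other genes were also deeper, with medians of 5288.5 and 2755 UMIs in the groups for *CA10*.

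**Figure D2:**
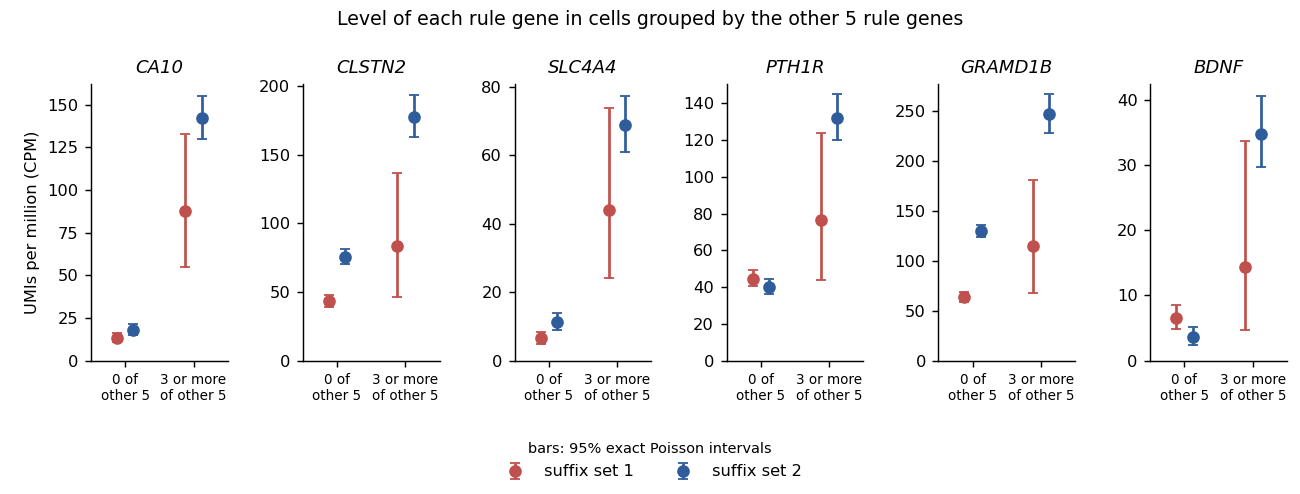
Level of each of the 6 rule genes (vertical axis, CPM) in excitatory neurons with 0 and in cells with 3 or more of the other 5 rule genes, for suffix sets 1 and 2, with exact Poisson 95% intervals. *CA10* stood at 13.4 and 87.7 CPM in set 1 and at 18.1 and 142 CPM in set 2.

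The main comparison was with 11240 other excitatory neurons, cells with a UMI in at least 3 of 8 excitatory genes, among them *NEUROD2*, *NEUROD6*, *BHLHE22*, *TBR1*, *BCL11B*, *SLC17A7* and *SLA*, and none of *EOMES*, *LHX6* and *ADARB2*, with a median of 3368 UMIs. A gene was counted past the fold when its log2 ratio of CPM, with 10 CPM added to each, was at least 1 in size, and a log2 ratio below refers to that scale. Of 13907 genes with at least 50 UMIs, 23 were past the fold higher (0.165%) and 27 lower (0.194%), or 17 and 26 without the genes of the rule. With the comparison cells weighted to the same share of UMIs from each set, 13 were higher and 39 lower. With weighting to the neurons' depth, 12 were higher and 40 lower. Most transcripts were thus within the fold of other PyNs, and the balance between higher and lower depended on the set and depth of the comparison cells. Against all other cells of the table, 34 of 15567 genes were past the fold higher (0.218%) and 267 lower (1.72%).

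*RASD1*, a Ras-related small GTPase that is induced by glucocorticoids, stood furthest above other excitatory neurons. It was at 92.5 CPM in the *CA10* *PTH1R* neurons and 22.8 CPM in the others, a ratio of 4.06 (3.65 to 4.51), with 45.2 against 6.58 CPM in set 1 and 96.3 against 32.3 in set 2. *RASD1* was detected in 29.4% of the neurons and 6.40% of the others, and in 14.3% and 3.30% at 2000 UMIs per cell. *CPNE8*, a calcium-dependent phospholipid-binding copine, was at 113 against 38.4 CPM, with 61.9 against 15.4 in set 1 and 117 against 51.9 in set 2. Both genes were higher in the neurons of each set.

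Other named higher genes included *KCNAB1*, *SLC24A3* and *KCNIP2*. *KCNAB1*, a potassium channel beta subunit, was at 79.9 against 26.1 CPM (31.0 against 11 in set 1, 83.8 against 35.0 in set 2). *SLC24A3*, an exchanger of sodium for calcium and potassium, was at 195 against 83.0 CPM (155 against 72.5 in set 1, 198 against 89.1 in set 2). *KCNIP2*, a potassium channel-interacting protein, was at 46.4 against 23.8 CPM, a log2 ratio of 0.74. *KCNIP2* was not past the fold, and these 3 genes belong to no list used here. On the list of voltage-gated channels, 31 genes were tested, 0 were past the fold in either direction, and the median log2 ratio was -0.05, beside 0.00 for all genes.

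The named higher genes also included *COL24A1*, *HS3ST5*, *SPOCK1* and *CXCL14*. *COL24A1*, a fibrillar collagen, was at 377 against 153 CPM (2.47, 2.35 to 2.59), with 226 against 65.6 in set 1 and 389 against 204 in set 2. *COL24A1* had a UMI in 60.4% of the neurons and 24.3% of the others, or 40.5% and 16.1% at 2000 UMIs per cell. *HS3ST5*, a heparan sulfate sulfotransferase, was at 138 against 61.8 CPM, and *SPOCK1*, a proteoglycan, at 167 against 81.7 CPM, which is not past the fold (log2 0.95). *CXCL14*, a chemokine, was at 51.7 against 20.9 CPM, and inhibitory neurons had 195 CPM of it. *CXCL14* was higher in the neurons of each set, at 45.2 against 9.54 CPM in set 1 and 52.3 against 27.5 in set 2.

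Transcriptional regulators that stood higher were *TOX3*, a high mobility group box protein (333 against 151 CPM, log2 1.09), *LMO3*, a LIM-only protein (179 against 85.0 CPM, log2 1.00), *ZNF423*, a zinc finger protein (143 against 64.7 CPM, log2 1.03), and *NEUROD1*, a proneural factor of young neurons (98.2 against 52.4 CPM, log2 0.79). *LMO3* was at 148 against 53.9 CPM in set 1 and 182 against 103 in set 2, and its pooled log2 ratio was below 1 before rounding. *TOX3* had a UMI in 71.2% of the neurons against 31.6%, or 44.2% against 20.2% at 2000 UMIs. The remaining higher genes were *LHFPL6*, *MCC*, *GULP1*, *TENT5A*, *STXBP6*, *TPBG*, *GADD45G*, *DCC*, *MTUS2*, *PDZRN4*, *GPR176* and *CHN2*, with log2 ratios from 0.72 to 1.17. Of all 25 named higher genes, 14 were past the fold with the sets pooled, 9 in set 1 and 6 in set 2. With the comparison cells weighted by set 6 of the 25 were past it, and with weighting by depth 4 were, with log2 ratios of 0.64 to 1.34 and 0.57 to 1.29. The genes had been chosen for the same direction in each set, so the number past the fold, and not the direction, is what varied.

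Among deep-layer genes, *BCL11B*, *FEZF2* and *ZFPM2* were lower. *BCL11B* (CTIP2), a transcription factor of subcerebral projection neurons, was at 13.3 CPM against 64.4, a ratio of 0.206 (0.162 to 0.259). It stood at 2.38 against 37.7 CPM in set 1 and 14.2 against 80.1 in set 2. *BCL11B* was 1 of the 8 genes used to choose the comparison cells, and it was detected in 5.53% of the neurons and 15.3% of the others, or 2.11% and 9.37% at 2000 UMIs. *FEZF2*, which specifies such neurons, was at 22.1 against 68.4 CPM (4.76 against 24.3 in set 1, 23.5 against 94.2 in set 2). *ZFPM2*, a cofactor of GATA factors found in layer 6 neurons, was at 42.9 against 110 CPM. Its log2 ratio was -0.60 in set 1, which is not past the fold, and -1.52 in set 2. The others can include the layer 6 gene neurons described below, which were chosen partly by *ZFPM2*. Of 15 deep-layer genes tested, 3 were past the fold lower (*BCL11B*, *FEZF2* and *ZFPM2*), 0 higher, and 13 were below 0, with a median log2 ratio of -0.56. Over all genes 0.194% were past the fold lower and the median was 0.00. Against the *RORB* neurons described below, 14 deep-layer genes were tested, with 1 past the fold higher and 1 lower. Their median log2 ratio was 0.01, beside 1.28% higher, 1.16% lower and a median of 0.07 for all genes. As a list, the deep-layer genes thus did not separate the *CA10* *PTH1R* neurons from *RORB* neurons.

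*ROBO2*, a receptor through which Slit proteins repel growing axons, had as low a log2 ratio as *BCL11B* (-1.68 for each). *ROBO2* was at 366 CPM in the neurons and 1193 CPM in the others, a ratio of 0.307 (0.294 to 0.321), with 531 against 1128 CPM in set 1 and 353 against 1231 in set 2. A UMI of it was found in 40.5% of the neurons and 62.5% of the others, or 25.9% and 52.1% at 2000 UMIs. Other lower genes act at the cell surface or synapse: *LYPD1* (40.4 against 140 CPM), a Ly6 family protein that modulates nicotinic receptors, *NRXN3* (24.3 against 74.7 CPM), a presynaptic neurexin, *EFNA5* (35.8 against 92.0 CPM), an ephrin, and *NEGR1* (94.3 against 204 CPM), an adhesion molecule. *NRXN3* was at 5471 CPM in inhibitory neurons, and its log2 ratio was -1.31 with all cells and -1.30 without the cells marked as possible doublets. *RALYL*, *PEX5L*, *PCSK2*, *FRMPD4*, *MGAT4C*, *NWD2* and *CNTNAP5* were lower by 0.90 to 1.41 on the log2 scale. Of the 15 named lower genes, 11 were past the fold with the sets pooled, 6 in set 1 and 15 in set 2, and 15 with the comparison cells weighted by set.

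**Figure D3:**
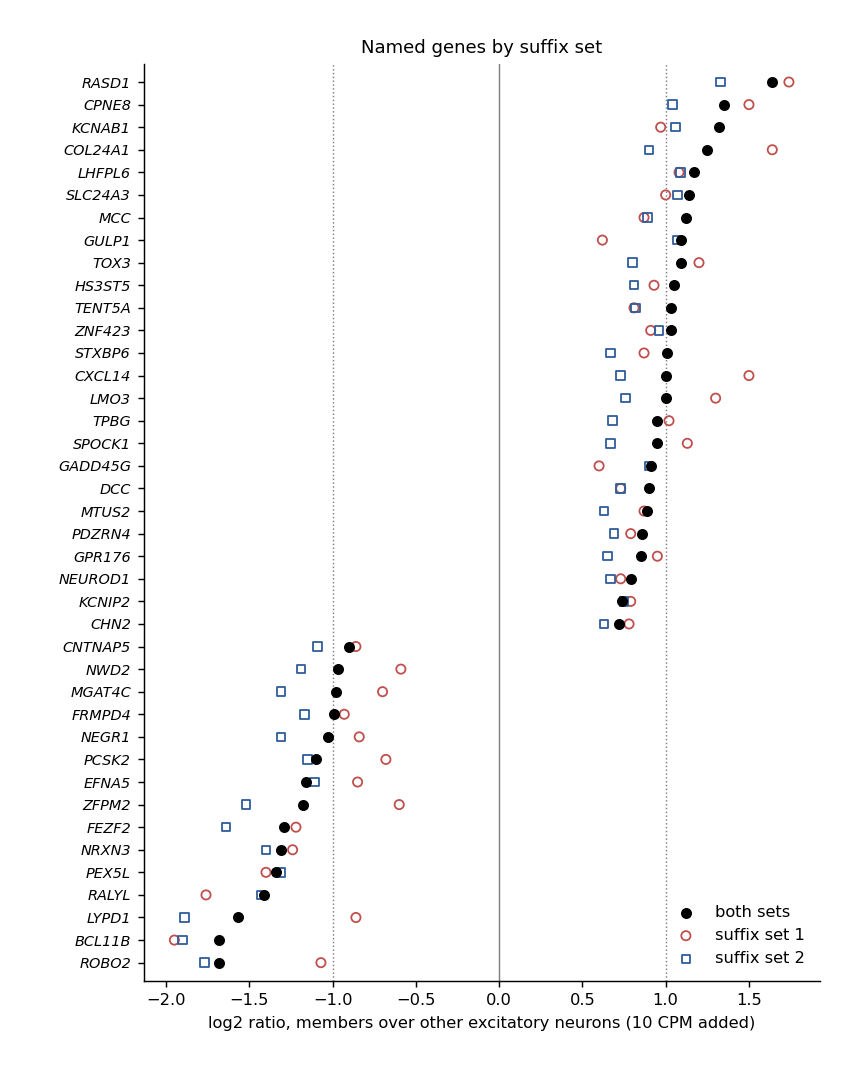
Log2 ratio of members (*CA10* *PTH1R* neurons) over other excitatory neurons, with 10 CPM added (horizontal axis), for the 25 higher and 15 lower named genes (vertical axis), by suffix set and pooled, with dotted lines at the fold of 1 and -1. *RASD1* lay at 1.74 in set 1 and 1.33 in set 2, and *ROBO2* at -1.07 and -1.77. The genes were chosen for the same direction in each set.

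Levels of some named genes are also given by the number of rule genes that a cell had. In excitatory neurons that met the other conditions and had 0, 1 and 2 of the 6 genes, and in the *CA10* *PTH1R* neurons with 3, 4 and 5 or 6, *RASD1* was at 8.84, 20.0, 37.7, 77.3, 103 and 168 CPM. *COL24A1* was at 80.4, 143, 196, 334, 389 and 635 CPM, and *DCC* at 325, 368, 481, 622, 742 and 895 CPM. With the sets pooled, these 3 genes were higher at every step. *ROBO2* went the other way, at 1555, 1151, 820, 382, 380 and 221 CPM. *BCL11B* did not follow each step: it was at 73.5, 81.9, 48.9, 15, 9.76 and 11.2 CPM, the last from 6 UMIs. The groups also held the sets in different shares, with 2061 of 4860 cells from set 2 at 0 rule genes and 82 of 83 at 5 or 6. Within set 2, *COL24A1* was at 122 CPM at 0, 349 at 3 and 637 at 5 or 6, *RASD1* at 14.0, 82.2 and 167 CPM, and *ROBO2* at 1821, 365 and 211 CPM. Median depth moved with the number of rule genes, from 2744 UMIs at 0 to 5024 at 3, and its part in these levels was not tested. These genes were chosen for their difference between cells past the limit and other cells, so the values describe that choice.

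**Figure D4:**
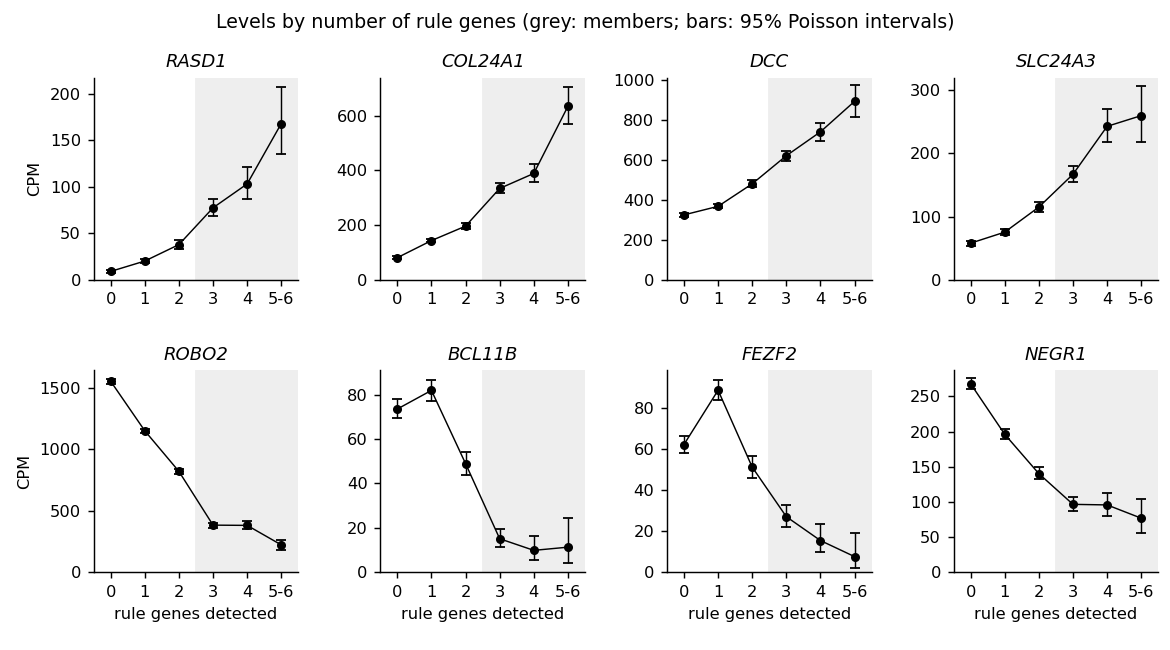
Level (vertical axis, CPM) of 8 genes by the number of rule genes detected in a cell (horizontal axis), in excitatory neurons with 0 to 2 and in members (the *CA10* *PTH1R* neurons, grey) with 3, 4 and 5 or 6, with exact Poisson 95% intervals. *RASD1* went from 8.84 to 168 CPM and *ROBO2* from 1555 to 221 CPM.

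Layer identity was read from genes that the rule did not use. *CUX2*, a homeodomain factor of upper layers, was at 286 CPM and had a UMI in 59.0% (37.6% at 2000 UMIs). It was at 248 CPM in set 1 and 290 in set 2, against 229 and 235 CPM in other excitatory neurons. *RASGRF2*, a Ras and Rac exchange factor of upper-layer neurons, was at 324 CPM and in 70.6%. *POU3F2* (BRN2), a POU factor of upper-layer neurons, was at 181 CPM against 191 in other excitatory and 97.2 in *S100A10* neurons. *TLE4*, a corepressor of corticothalamic neurons, was at 127 CPM and in 35.2% of the neurons, against 231 CPM in other excitatory neurons. It was found with *CUX2* in 22.9% and without it in 12.3% of the neurons, against 16.9% and 19.3% of the others. The shares of cells with *TLE4* were thus similar, although the others were shallower. The others can include layer 6 gene neurons, which were chosen partly by *TLE4* and had 1415 CPM of it. The 13 upper-layer genes tested had 0 past the fold and a median log2 ratio of 0.08 against other excitatory neurons. Against *RORB* neurons, 2 of the 13 were past the fold higher and 1 lower, beside 1.28% and 1.16% of all genes. The median there was 0.03, beside 0.07 for all genes.

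The gene that names the *S100A10* neurons was detected here too. *S100A10*, an annexin-binding protein, was at 415 CPM and had a UMI in 48.9% of the *CA10* *PTH1R* neurons, with 519 CPM in set 1 and 407 in set 2, against 240 CPM in other excitatory neurons and 740 CPM in *S100A10* neurons. The rule limited the genes of that group to at most 2 of 6 per cell, so this level was shaped by the choice, as was that of *RORB*. *RORB*, a nuclear receptor of layer 4 neurons, was at 126 CPM, against 151 CPM in other excitatory neurons and 552 in *RORB* neurons. *LMO4*, a LIM-only protein of upper-layer neurons, was at 331 CPM in set 1 and 842 in set 2, and *MEIS2*, a TALE homeodomain factor, at 519 and 915. Other excitatory neurons had the same order between sets, with 252 and 844 CPM of *LMO4* and 398 and 985 of *MEIS2*.

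The 706 *S100A10* neurons were taken by the mirror of the rule and had a median of 6055.5 UMIs. Of 10681 genes, 49 were past the fold higher in *CA10* *PTH1R* neurons (0.459%) and 97 lower (0.908%). *CUX2* was the highest, at 286 against 46.2 CPM, a ratio of 6.21 (5.37 to 7.21), with 248 against 51.0 in set 1 and 290 against 45.0 in set 2. A UMI of *CUX2* was found in 59.0% of the neurons against 14.9%, although *S100A10* neurons were deeper. *THSD7A*, a thrombospondin domain protein, was at 488 against 105 CPM, and *PDE1C*, a calcium-dependent phosphodiesterase, at 418 against 94.3 CPM. *SEMA3C*, a secreted semaphorin, was at 133 against 36.8 CPM, and *UNC5C*, a netrin receptor, at 136 against 39.5 CPM, with a smaller difference in set 1 (73.8 against 41.5). The other higher genes were *KCNMB2*, *CDC42EP3* and *EZR*, with log2 ratios of 1.79, 1.51 and 1.45.

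*PDE1A*, a phosphodiesterase of the same family as *PDE1C*, had the opposite order. *PDE1A* was at 38.3 CPM in *CA10* *PTH1R* neurons and 235 CPM in *S100A10* neurons, with 50 against 115 in set 1 and 37.3 against 263 in set 2. *LRRC4C*, a netrin-G ligand of synapses, was at 26.2 against 153 CPM, *ADRA1A*, an adrenergic receptor, at 4.96 against 45.9, and *FEZF2* at 22.1 against 108 CPM. *CSMD3* was at 149 against 572 CPM, and *IL1RAPL2*, *LYPD1* and *PRICKLE2* had log2 ratios of -2.12, -1.89 and -1.83. Of 13 upper-layer genes tested against *S100A10* neurons, 3 were past the fold higher and 0 lower, beside 0.459% and 0.908% of all genes. Their median log2 ratio was 0.59, beside 0.03 for all genes. Of the 8 higher and 8 lower named genes, which were chosen for 1 direction in both sets, 7 and 6 were past the fold in set 1.

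The 678 *RORB* neurons, also chosen by the mirror of the rule, had a median of 5005.5 UMIs and were more frequent in set 1 (438 cells) than in set 2 (240). Of 10433 genes, 134 were past the fold higher in *CA10* *PTH1R* neurons (1.28%) and 121 lower (1.16%). With *RORB* neurons weighted by set, 100 were higher and 144 lower. *RASD1* was at 92.5 against 6.35 CPM, a ratio of 14.6 (9.61 to 23.2), and *CPNE8* at 113 against 8.83 CPM. *MEIS2* was at 885 against 138 CPM, with 519 against 97.5 in set 1 and 915 against 190 in set 2. *PLXNA2*, a plexin that takes part in semaphorin signalling, was at 333 against 61.0 CPM, and *SLIT2*, a repellent ligand of the ROBO receptors, at 126 against 13.0. *GALNT14* and *TPBG* had log2 ratios of 2.17 and 2.14.

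In the other direction, *GRIA4*, a subunit of AMPA receptors, was at 16.1 against 201 CPM in *RORB* neurons, with 26.2 against 160 in set 1 and 15.3 against 253 in set 2. *EFNA5* was at 35.8 against 299 CPM, and *CCN2* (CTGF), a matricellular protein of subplate and layer 6b, at 1.24 against 66.0. *NR3C2*, the mineralocorticoid receptor, was at 2.83 against 53.5 CPM, and *SEMA3E* at 12 against 84.7. *NRXN3*, *CSGALNACT1* and *RALYL* had log2 ratios of -2.33, -2.25 and -2.16. All 16 named genes were past the fold in each set. *ROBO2* was lower than in *RORB* neurons as well (366 against 885 CPM), by 0.31 on the log2 scale in set 1 and 1.70 in set 2.

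The 620 layer 6 gene neurons had at least 3 of *TLE4*, *FOXP2*, *SYT6*, *HS3ST4*, *ZFPM2* and *SEMA3E*, and a median of 4208 UMIs. Of 10731 genes, 108 were past the fold higher in *CA10* *PTH1R* neurons (1.01%) and 638 lower (5.95%). Markers of other cells moved with the lower genes: the endothelial list summed to 545 CPM in layer 6 gene neurons against 7.80 CPM, and the cycling list to 286 against 66.6. Against those with at least 3 excitatory genes, 98 were higher and 324 lower. *CUX2* was at 286 against 51.0 CPM, *RASGRF2* at 324 against 71.7 CPM, *PLXNA4*, a semaphorin receptor, at 265 against 58.8, and *TAFA1*, a secreted neurokine, at 1476 against 363. *NTNG2*, a membrane-bound netrin-G, was at 71.2 against 7.84 CPM, and *PDE1C*, *RASD1* and *UNC5C* had log2 ratios of 2.30, 2.04 and 2.03.

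Among the lower genes of that comparison, *ZFPM2*, *FOXP2*, *HS3ST4* and *TLE4* chose the layer 6 gene neurons, and their log2 ratios of -4.44, -4.02, -3.45 and -3.38 describe that choice. *MGAT4C*, a glycosyltransferase, was at 47.3 against 585 CPM, and *CDH18*, a cadherin, at 4.07 against 134. Their log2 ratios stayed at -3.45 and -3.20 against the cells with at least 3 excitatory genes. *SPARCL1*, a matricellular protein of glia and vessels, had a log2 ratio of -3.98, which was -2.65 against those cells and -1.99 without cells marked as possible doublets. *DACH1*, a transcriptional regulator, had -3.33, -2.20 and -1.68. Upper-layer genes had 7 of 13 past the fold higher with a median log2 ratio of 1.06, beside 1.01% of all genes higher and a median of -0.07. That list was not recomputed against the cells with at least 3 excitatory genes. Against them *CUX2* had a log2 ratio of 1.97 instead of 2.28, and *RASGRF2* 1.57 instead of 2.03. The deep-layer list had 10 of 15 lower and 1 higher, beside 5.95% and 1.01% of all genes, with a median of -1.54. But it holds genes that chose the layer 6 gene neurons, so this count and median partly describe that choice.

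**Figure D5:**
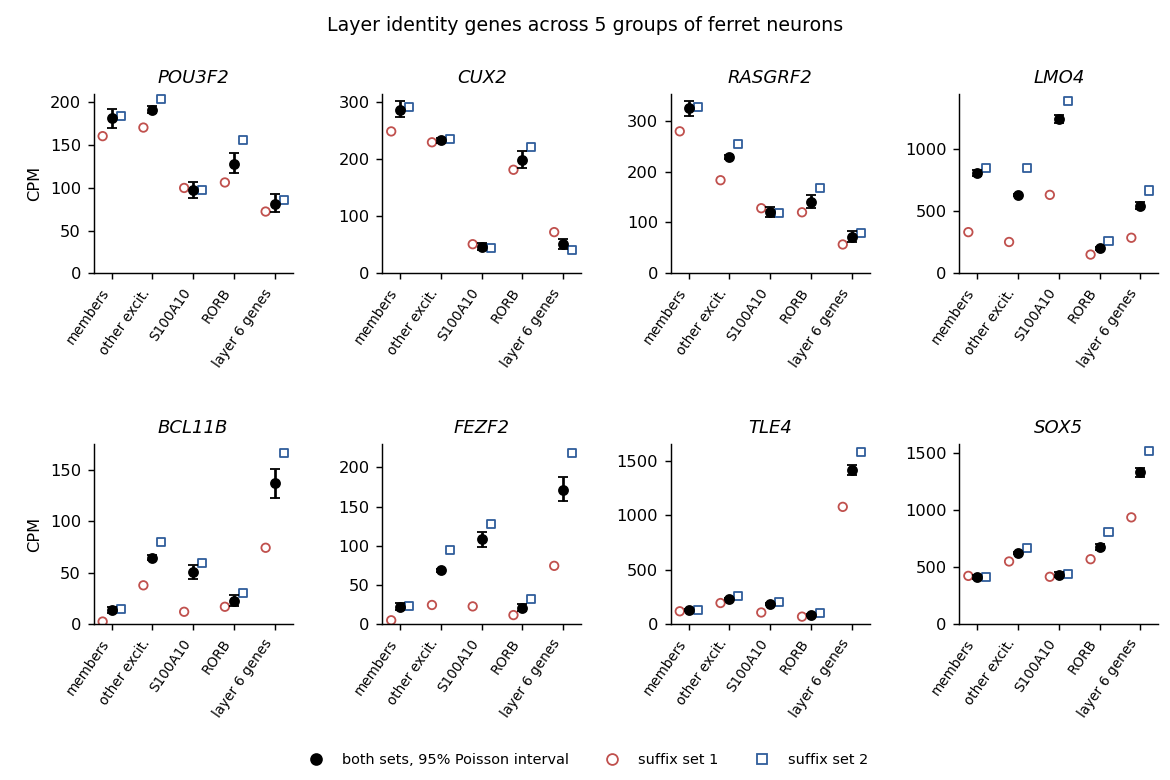
Levels (vertical axes, CPM) of 8 layer identity genes in members (*CA10* *PTH1R* neurons), other excitatory, *S100A10*, *RORB* and layer 6 gene neurons (horizontal axis), pooled with exact Poisson 95% intervals and by suffix set (open circles set 1, squares set 2). *CUX2* was at 286 CPM in members and 51.0 CPM in layer 6 gene neurons, and *BCL11B* at 13.3 and 137 CPM.

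Axon guidance genes showed a mixed pattern against other excitatory neurons. Of 39 tested, 0 were past the fold higher and 2 lower (*ROBO2* and *EFNA5*), and the median log2 ratio was -0.02, beside 0.165% and 0.194% of all genes and a median of 0.00. Among netrin receptors, *DCC*, which mediates attraction, was at 678 CPM against 359 in other excitatory, 373 in *S100A10*, 123 in *RORB* and 220 in layer 6 gene neurons. Its ratio to other excitatory neurons was 1.89 (1.82 to 1.96), with 440 against 261 CPM in set 1 and 697 against 417 in set 2. *UNC5C*, which mediates repulsion, was at 136 CPM against 84.6 in other excitatory neurons. *UNC5D*, another receptor of that family, was at 265 against 483 CPM, so the netrin receptors did not move together. Of the 5 groups compared, *DCC* was highest in the *CA10* *PTH1R* neurons and *ROBO2* lowest. Other excitatory neurons can share cells with the *S100A10*, *RORB* and layer 6 gene groups. *SLIT2*, the ligand, was at 126 against 72.5 CPM and *PLXNA2* at 333 against 209. Against *RORB* neurons, 10 of 35 guidance genes were past the fold higher and 4 lower, beside 1.28% and 1.16% of all genes. The median log2 ratio was 0.41, beside 0.07 for all genes. These values pool the sets, which the *CA10* *PTH1R* and *RORB* neurons hold in different shares. Of the 35 genes, 27 had the same sign in both sets.

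Genes of the pathways of the 6 rule genes are given by list, beside 0.165% of all genes past the fold higher and 0.194% lower. In parathyroid hormone receptor signalling, 0 of 19 genes tested were past the fold higher and 1 lower, with a median log2 ratio of 0.01. *GNAS*, the stimulatory G protein subunit through which the receptor raises cAMP, was at 966 against 808 CPM, and *GNAQ*, which links it to phospholipase C, at 457 against 353. *PDE4B* and *PDE4D*, which break down cAMP, had log2 ratios of 0.72 and 0.53. *PDE1A* was the gene past the fold, with a log2 ratio of -1.14 that was 0.19 in set 1 and -1.55 in set 2. *PTHLH*, the related peptide that binds the receptor, had a UMI in 0.0954% of the neurons (0.00242 to 0.530), 0.187% of other excitatory neurons (0.116 to 0.285) and 1.96% of RG cells. The first value is a single cell, so no difference from other excitatory neurons was detectable at this depth.

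Of 9 genes of neurotrophins and their receptors, 0 were past the fold, and the median log2 ratio was 0.18. *NTRK2* (TrkB), the receptor of BDNF, was at 138 against 102 CPM, with log2 ratios of -0.16 in set 1 and 0.36 in set 2. *NTRK3*, the receptor of NT-3, had a log2 ratio of -0.58, and *NTF3*, which encodes NT-3, one of 0.46. Among 28 neurexin and calsyntenin partners, *NRXN3* alone was past the fold and the median was -0.02, with *FLRT2*, a ligand of latrophilins and UNC5 receptors, at 0.65 and *LRRTM4*, a postsynaptic neurexin ligand, at -0.59. *CLSTN1* (90.5 against 92.2 CPM) and *CLSTN3* (16.5 against 16.3 CPM), relatives of *CLSTN2*, had ratios of 0.982 (0.894 to 1.08) and 1.01 (0.808 to 1.26). Of 8 bicarbonate and pH genes and 11 sterol genes, 0 were past the fold, with medians of 0.00 and -0.01.

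Receptors and activity-regulated genes are given in the same way. Of 20 glutamate receptor genes 0 were past the fold, with a median log2 ratio of -0.09. *GRIA1*, an AMPA receptor subunit, was at 169 against 93.6 CPM (log2 0.79), while *GRIA4* was at 16.1 against 37.5 (log2 -0.86). Of 11 GABA receptor genes 0 were past it, with a median of 0.02. Of 16 activity-regulated genes 0 were past it, with a median of 0.07. *FOS*, an immediate early gene, was at 95.3 against 44.5 CPM (log2 0.95), with log2 ratios of 0.28 in set 1 and 0.95 in set 2. *NTS*, which encodes neurotensin, was at 4.07 against 90.8 CPM with similar shares of cells with a UMI, 2.10% against 2.32%, so its level in the other neurons came from few cells with many UMIs. *RELN*, the secreted protein that guides migration, was at 9.74 against 41.5 CPM, with 526 CPM in inhibitory neurons.

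Between the sets, the *CA10* *PTH1R* neurons themselves differed more toward set 2. Of 9132 genes, 17 were past the fold higher in set 1 (0.186%) and 166 in set 2 (1.82%). *STXBP6*, a regulator of exocytosis, was at 114 CPM in set 1 and 313 in set 2, and *LMO4* at 331 and 842. *RASD1*, at 45.2 and 96.3, was not past the fold. *LMO4* and *RASD1* were higher in set 2 in other excitatory neurons as well, so these shifts are not particular to the *CA10* *PTH1R* neurons. *CRABP1*, a binding protein of retinoic acid, was at 136 CPM in set 1 and 54.2 in set 2. The ribosomal protein genes *RPL14* (986 and 428 CPM) and *RPS28* (4776 and 2366 CPM) were higher in set 1. In other excitatory neurons they were higher in set 1 too, by log2 ratios of 1.25 and 1.07. The neurons of set 1 had fewer UMIs per cell (median 3453 against 5389), and the part of depth in these differences was not tested.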

How the data were processed

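The authors deposited 1 table of raw UMI counts for the ferret cells, in which no normalization had been applied. The submitters' processing notes name Cell Ranger, StringTie and Seurat 3, and mm10 as the only build. The ferret build is not given in the sources used here. Names were matched to a RefSeq table (ASM1176430v1.1), which held 21910 of 22008. No sequence was used here.

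Members and gene lists were chosen with earlier results of these data known. Cells of at least 750 genes were kept, counts were summed over each group of cells, and CPM were given with exact Poisson intervals, shares with Clopper-Pearson intervals and ratios with conditional binomial intervals, all at 95% (scipy 1.17.1 with pandas 2.3.3 and numpy 2.4.6, under python 3.11.15; figures with matplotlib 3.10.9). A gene needed 50 UMIs in both groups together, and 10 CPM were added before log2. Shares at 2000 UMIs are expected values after thinning each cell, and shallower cells were left out, which kept 1013 of 1048 members and 9879 of 11240 other excitatory neurons. Inhibitory neurons and RG cells were cells with at least 4 markers of their list, inhibitory neurons with fewer than 3 excitatory genes and RG cells without counting *FABP7*. Members were left out of the RG cells.

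Named genes were the 25 highest and 15 lowest against other excitatory neurons, and the 8 highest and 8 lowest against each other group, by log2 ratio. They needed a symbol, a UMI in at least 10% of the cells of the higher group, and a log2 ratio past 0.58 in the same direction in each set. Mitochondrial, ribosomal and rule genes were left out of this choice. Genes of the lists, and those named between sets, were picked with their values known. The calculation was tested on simulated data. Alternatives were other cell filters, rule thresholds, added CPM, count minimums, weightings, single sets, equal weight per cell, removal of marker-positive possible doublets and, chosen after seeing the data, weighting by set, thinning before the rule and narrower comparison cells. The values of 1 gene of these lists are not reported here.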

Additional observations from a re-analysis of the deposited data

How the results depend on the processing

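The share of cells taken as *CA10* *PTH1R* neurons (4.51%) was 4.85% with at least 1000 genes. Without cells that carried several inhibitory, RG or microglial markers it was 5.59%, or 971 of 17383 cells. That filter also took out the inhibitory neurons and RG cells themselves, so this share has a smaller total and is no estimate of doublets. The share was 1.46% with at least 4 of the 6 genes, 12.3% with at least 2, 1.13% in set 1 and 7.15% in set 2. After thinning to 3000 UMIs it was 4.01% of the 11999 cells that had at least 3000 UMIs. Genes past the fold against other excitatory neurons (50) numbered 301 with 1 CPM added, 12 with 50 CPM added, 11 with at least 2 rule genes, 99 in set 1 and 78 against cells with at most 1 rule gene. Against *S100A10* neurons (146) there were 356 with 1 CPM and 39 with 50 CPM, and against *RORB* neurons (255) there were 536 and 78. Against layer 6 gene neurons (746) there were 1211 and 229, 379 in set 1, 493 without possible doublets and 422 against cells with at least 3 excitatory genes. Added CPM decide how many low genes pass, and the cause of the other changes was not tested. Of 1288 recomputed values of named genes 0 were reversed, but the genes had been chosen for 1 direction in both sets, so values from single sets or weighted by set could not reverse.

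The comparison groups differ in depth and in their share of each set, all cells come from 1 embryo, and 709 of 1048 members sit at the limit of 3 rule genes. No paired analysis was possible because the table has no map from cells to samples and no test was made.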

Other observations

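Markers of cells from neighbouring regions were measured in the *CA10* *PTH1R* neurons as well. The claustrum and endopiriform list summed to 882 CPM, against 782 CPM in other excitatory neurons, and 0 of its 6 genes tested were past the fold. The hippocampal list summed to 253 against 186 CPM with 0 of 7 past the fold, and the thalamic list to 147 against 205 CPM with 0 of 4. The subplate list summed to 37.4 CPM, against 56.3 in other excitatory neurons and 103 in *RORB* neurons. The Cajal-Retzius list summed to 9.92 CPM with 4 of 6 genes at 0, and the intermediate progenitor list to 81.3 against 105 CPM.

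Of the lists not described above, area patterning had 19 genes tested, 0 past the fold and a median log2 ratio of -0.03 against other excitatory neurons. *LMO3* was at 1.00, which is below 1 before rounding, and *EPHA7*, an ephrin receptor, at -0.92. Cadherins had 0 of 20 past it and a median of -0.13, neuron maturation 0 of 22 and -0.06, and retinoic acid genes 0 of 8 and -0.09. Migration genes had 1 of 17 lower (*RELN*) and a median of -0.16, and neuropeptide genes 1 of 15 lower (*NTS*) and a median of -0.04.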
